A study of Rattus norvegicus with 40 samples.

Results

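Genes of oxidative stress defence were followed in microglia, the macrophages that live in brain and spinal cord, of rat offspring whose dams went through intermittent hypoxia in gestation. The set held 7 of the 32883 Ensembl gene IDs in the deposited count table: Nfe2l2 (ENSRNOG00000001548), Hmox1 (ENSRNOG00000014117), Nqo1 (ENSRNOG00000012772), Gclc (ENSRNOG00000006302), Sod1 (ENSRNOG00000002115), Sod2 (ENSRNOG00000019048) and Cat (ENSRNOG00000008364). The rule names them for their function in oxidative stress defence, and each of the 7 passed the filter on low counts in every fit. The count table lists IDs alone, and the names are those given with the IDs when the set was drawn up.

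The libraries came from Sprague Dawley rats of 8 weeks. Their dams had breathed air alternating between 10.5% and 21% oxygen (hypoxia) or room air at 21% throughout (normoxia) from day 10 to day 21 of gestation, with 15 cycles per hour over 8 hours daily. All offspring were born and raised in room air, and the series design gives 1 female and 1 male from 5 paired litters. Microglia were taken with anti-CD11b magnetic beads from segments C3 to C6 of the cervical cord and from the medulla of each animal, and bulk RNA of each isolate was sequenced. The 40 libraries formed 8 groups of 5 animals: hypoxia and normoxia females and hypoxia and normoxia males, each with a cord and a medulla library. CD11b is also carried by other myeloid cells, and the labelled cell type was not checked against marker genes, since the marker symbols could not be matched to the IDs. In such bulk RNA, fewer cells of a type and less RNA per cell cannot be told apart.

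Nfe2l2 encodes Nrf2, a transcription factor that Keap1 keeps at a low level by directing its degradation. Under oxidative or electrophilic stress Nrf2 escapes Keap1 and, paired with small Maf proteins, binds antioxidant response elements in its target genes. Known targets include Hmox1, the inducible haem oxygenase, Nqo1, a quinone reductase, and Gclc, the catalytic subunit of the enzyme that limits glutathione synthesis. Sod1 in the cytosol and Sod2 in mitochondria turn superoxide into hydrogen peroxide, and catalase, encoded by Cat, breaks hydrogen peroxide down in peroxisomes. Microglia make superoxide themselves through the phagocyte NADPH oxidase.

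The promoter windows of the 3 members on which the results turn are shown, because Nfe2l2 and Sod1 were both called higher in one group and Cat was called between the regions of males. Each window runs 5′ to 3′ on the strand of its gene and spans 300 bases around the RefSeq start (build GRCr8; the counts were made on rn6). Capitals mark the core of the antioxidant response element (TGACNNNGC) and the CCAAT box (CCAAT), on either strand and with no overlap between them.
Nfe2l2, chr3:81028950-81029249, minus strand: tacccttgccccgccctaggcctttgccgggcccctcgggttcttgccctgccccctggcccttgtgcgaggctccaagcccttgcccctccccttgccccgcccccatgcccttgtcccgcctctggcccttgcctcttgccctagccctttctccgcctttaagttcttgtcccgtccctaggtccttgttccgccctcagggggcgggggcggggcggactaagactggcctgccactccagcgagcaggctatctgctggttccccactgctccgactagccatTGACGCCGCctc
Sod1, chr11:42942573-42942872, plus strand: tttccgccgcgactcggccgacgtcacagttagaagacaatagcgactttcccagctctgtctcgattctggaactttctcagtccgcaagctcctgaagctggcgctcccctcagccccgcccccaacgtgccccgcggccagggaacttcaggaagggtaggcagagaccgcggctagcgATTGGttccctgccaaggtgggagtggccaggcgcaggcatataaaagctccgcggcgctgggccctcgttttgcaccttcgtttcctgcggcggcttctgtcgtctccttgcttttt
Cat, chr3:110329477-110329776, minus strand: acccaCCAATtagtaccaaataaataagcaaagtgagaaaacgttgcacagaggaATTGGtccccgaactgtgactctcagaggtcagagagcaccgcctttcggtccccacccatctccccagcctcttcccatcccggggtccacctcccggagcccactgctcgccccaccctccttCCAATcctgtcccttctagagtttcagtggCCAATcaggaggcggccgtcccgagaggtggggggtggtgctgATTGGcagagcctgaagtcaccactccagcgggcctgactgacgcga
The element's core was found in the Nfe2l2 window and in that of Sod2, which is 2 of the 6 members with a window in the table, and 12.1% of all 33469 windows held it. The CCAAT box was found in 3 of the 6, Nqo1, Sod1 and Cat, with 5 copies in the Cat window and 1 in that of Sod1, and 37.5% of all windows held it. Hmox1 was the member with no window, and sequence outside the 300 bases was not searched, so a missing match does not show that a gene lacks the element. These are matches of letters and not sites shown to be bound.

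Levels are given as CPM, read counts scaled to a common library total, which are not scaled to gene length and are therefore not compared between genes. Overlap between groups is judged on these CPM, while the main tests use totals corrected for composition (TMM), and these scales can differ. The share of all genes whose groups do not overlap was not counted. Library totals ranged from 6061346 to 24039411 reads. Female hypoxia medulla replicate 3 stood apart, with the lowest total and counts in 13379 genes, and it held the lowest CPM among the 40 libraries for 7 of the 7 members. Leaving it aside, Nfe2l2 ranged from 78.3 to 133 CPM, Gclc from 42.3 to 73.5, Sod2 from 36.3 to 80.5 and Cat from 19.2 to 59.9. Hmox1 ranged from 119 to 548 CPM and Sod1 from 15.97 to 132, the widest spans of the well-counted members. Nqo1 had 1.28 to 5.85 CPM, and with 6 to 107 reads per library over all 40 it had the fewest reads of the 7.

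**Figure D1:**
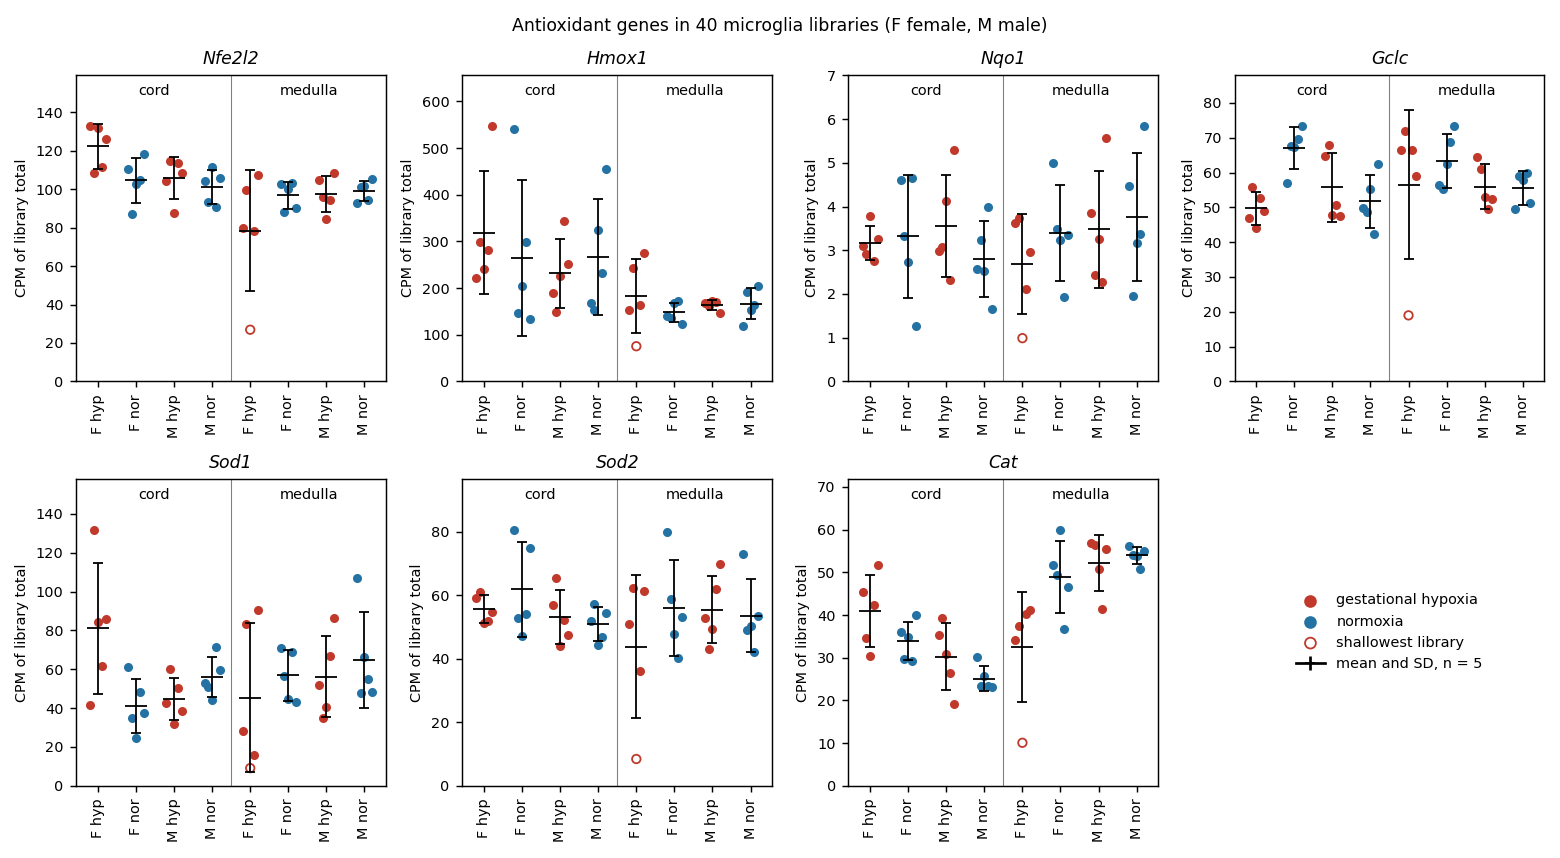
CPM (of the library total) of the 7 genes in 40 libraries, by sex, exposure and region, with points for libraries and bars for the mean and SD of 5. Cat lies at 50.8 to 56.2 CPM in male normoxia medulla libraries and at 23.1 to 30.0 in male normoxia cord libraries, and the open symbol, female hypoxia medulla replicate 3, is the lowest point in each panel.

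The first comparison asked whether the members differed between hypoxia and normoxia offspring within each sex and region. In the female cord 2 of the 7 members rose after hypoxia, Sod1 and Nfe2l2, and 0 fell, where 32.8% of the 13593 genes tested were called (edgeR quasi-likelihood test, Benjamini-Hochberg adjusted p under 0.05 over all genes). A share of 2 in 7 is near that background. The median log2 fold change was 0.37 over the 7 members and -0.0066 over all genes tested. In absolute size the medians were close, at 0.372 for the members and 0.356 for all genes. The remaining 5 members did not pass the test.

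Sod1, the cytosolic superoxide dismutase, had 41.8, 132, 84.2, 61.8 and 85.8 CPM in the hypoxia female cord, against 61.0, 35.1, 24.4, 48.2 and 37.4 CPM in the normoxia female cord. In hypoxia females 4 libraries lay above the highest normoxia library and replicate 1 lay within the normoxia range. Means were 81.1 ± 33.6 CPM in hypoxia and 41.2 ± 13.9 CPM in normoxia females (SD, n = 5 each), and the log2 fold change was 1.15 (SE 0.27, edgeR adjusted p = 0.0031). This call was kept in 18 of 18 alternative fits, with log2 fold changes of 0.85 to 1.33 and adjusted p-values from 0.000188 to 0.0369. The change was larger in size than that of about 90.9% of the genes tested.

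Nfe2l2, encoding Nrf2 itself, had 133, 108, 132, 111 and 126 CPM in the hypoxia female cord, against 110.5, 86.9, 103, 105 and 118 CPM in the normoxia female cord. On library totals the groups overlapped, with 3 hypoxia libraries above every normoxia library. The test used TMM scaling, which sets the hypoxia libraries higher relative to normoxia. The log2 fold change was 0.37 (SE 0.096, edgeR adjusted p = 0.0054), which lay near the middle of all genes, at the percentile 51.8 of absolute change. Scaled by library totals alone the Nfe2l2 change was 0.22 with an adjusted p of 0.0864, and with all 40 libraries in the fit it was 0.38 with an adjusted p of 0.0934; its 18 alternatives ranged from 0.00245 to 0.0934.

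Calls in the female cord depended on the scaling. TMM factors, edgeR's correction of library totals for composition, averaged 0.928 in the hypoxia and 1.03 in the normoxia female cord. With library totals alone the median log2 fold change of all genes in this comparison was -0.157. Library totals also stood apart, at 13570283 to 20650051 reads in hypoxia and 8818241 to 13327037 reads in normoxia females, and the part of depth in these differences was not tested.

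Gclc and Cat came close to the threshold in the female cord. Gclc, of glutathione synthesis, had 46.9, 55.9, 44.1, 52.8 and 48.9 CPM in hypoxia females, against 56.9, 67.7, 67.2, 69.7 and 73.5 CPM in normoxia females. On library totals its CPM did not overlap between the groups, with hypoxia below normoxia in every library. The closest pair was female hypoxia cord replicate 2 at 55.9 CPM and female normoxia cord replicate 1 at 56.9 CPM. The TMM factors of the fit with every library, 0.8515 and 1.026 respectively, reverse this pair, so the groups overlap on that scale. The log2 fold change of Gclc on the TMM scale was -0.28 (SE 0.13, edgeR adjusted p = 0.103). On library totals alone Gclc was called at -0.43 with an adjusted p of 0.00889, with limma voom at -0.31 with an adjusted p of 0.028, and without female hypoxia cord replicate 2 at -0.36 with an adjusted p of 0.0445; its 18 alternatives ranged from 0.00889 to 0.262.

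Cat had 45.4, 34.6, 30.4, 42.4 and 51.7 CPM in the hypoxia female cord, against 35.9, 29.6, 34.9, 29.1 and 39.9 CPM in the normoxia female cord. Here 3 hypoxia libraries lay above every normoxia library. For Cat the log2 fold change was 0.41 (SE 0.16, edgeR adjusted p = 0.0531), and it passed in 4 of 18 alternatives, whose adjusted p-values ranged from 0.00612 to 0.216. Among these were the fits without female normoxia cord replicate 5, at 0.0392, and without female hypoxia cord replicate 3, at 0.0272.

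Of the remaining members, Hmox1, Sod2 and Nqo1 were not called by exposure in the female cord, and their groups overlapped. Hmox1, which degrades haem, had 222, 299, 242, 282 and 548 CPM in hypoxia females, against 540.4, 147, 205, 299.7 and 133 CPM in normoxia females. The highest library of each group stood at about the same level, and the remaining libraries overlapped. Sod2 averaged 55.6 ± 4.36 CPM in hypoxia and 61.8 ± 14.8 CPM in normoxia females, and Nqo1 averaged 3.16 ± 0.394 CPM in hypoxia and 3.32 ± 1.41 CPM in normoxia females (SD, n = 5 each).

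In the male cord 0 of the 7 members were called between hypoxia and normoxia by edgeR, DESeq2 or limma voom, 0 had an unadjusted p under 0.05, and 0% of the 13593 genes were called. The members' log2 fold changes ran from -0.34 to 0.33. Sod1 had 42.5, 60.0, 31.7, 50.4 and 38.7 CPM in hypoxia males, against 53.0, 51.0, 44.3, 71.5 and 59.8 CPM in normoxia males. The male groups overlapped, and the hypoxia mean of 44.7 CPM lay below the normoxia mean of 55.9 CPM. Nfe2l2 averaged 105.7 ± 11.0 CPM in hypoxia males and 101.1 ± 8.69 CPM in normoxia males.

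The difference between the sexes was tested itself. The sex by exposure interaction in the cord called 1 of 7 members, Sod1, where 23.2% of all genes were called. The exposure difference of Sod1 was more positive in females than in males by 1.49 on the log2 scale (SE 0.39, edgeR adjusted p = 0.00876). It was kept in 26 of 27 alternatives and lost with all 40 libraries in the fit, at an adjusted p of 0.082 within a range of 0.00114 to 0.082. For Nfe2l2 the interaction was 0.32 (SE 0.14, edgeR adjusted p = 0.0891), so a difference between the sexes was not shown for Nfe2l2.

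In the medulla 0 of 7 members were called by exposure in either sex by edgeR, DESeq2 or limma voom, and 0% of the 14151 genes were called by edgeR in either. In males the members' log2 fold changes ran from -0.18 to 0.07, with 0 members at an unadjusted p under 0.05. In females they ran from -0.61 to 0.29, and 1 member of 7, Cat, had an unadjusted p under 0.05, as had 15.4% of all genes. Cat had 34.1, 37.3, 10.1, 40.3 and 41.2 CPM in the hypoxia female medulla, against 51.8, 49.4, 59.9, 36.8 and 46.6 CPM in the normoxia female medulla. The groups overlapped through 1 normoxia library, and 10.1 CPM is the shallow library. With it the log2 fold change was -0.61 (SE 0.22, edgeR unadjusted p = 0.0114, adjusted p = 0.246). Without it the change was -0.39 (edgeR unadjusted p = 0.00596, adjusted p = 0.478), so the unadjusted p fell while the adjusted p rose.

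Sod1 split within the hypoxia female medulla. Its 5 libraries had 28.2, 83.1, 9.07, 15.97 and 90.4 CPM, against 71.2, 56.6, 44.7, 69.1 and 43.3 CPM in the normoxia female medulla. In hypoxia, 2 libraries lay above and 3 below the whole normoxia range, and the one at 9.07 CPM is the shallow library. The hypoxia mean was 45.4 ± 38.5 CPM (SD, n = 5), or 54.4 ± 37.8 CPM without the shallow library (n = 4). The normoxia mean was 57.0 ± 13.1 CPM (n = 5). The interaction of sex and exposure in the medulla called 0 of 7 members and 0% of all genes by edgeR, and 0 members by DESeq2 or limma voom, with 0 members at an unadjusted p under 0.05.

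**Figure D2:**
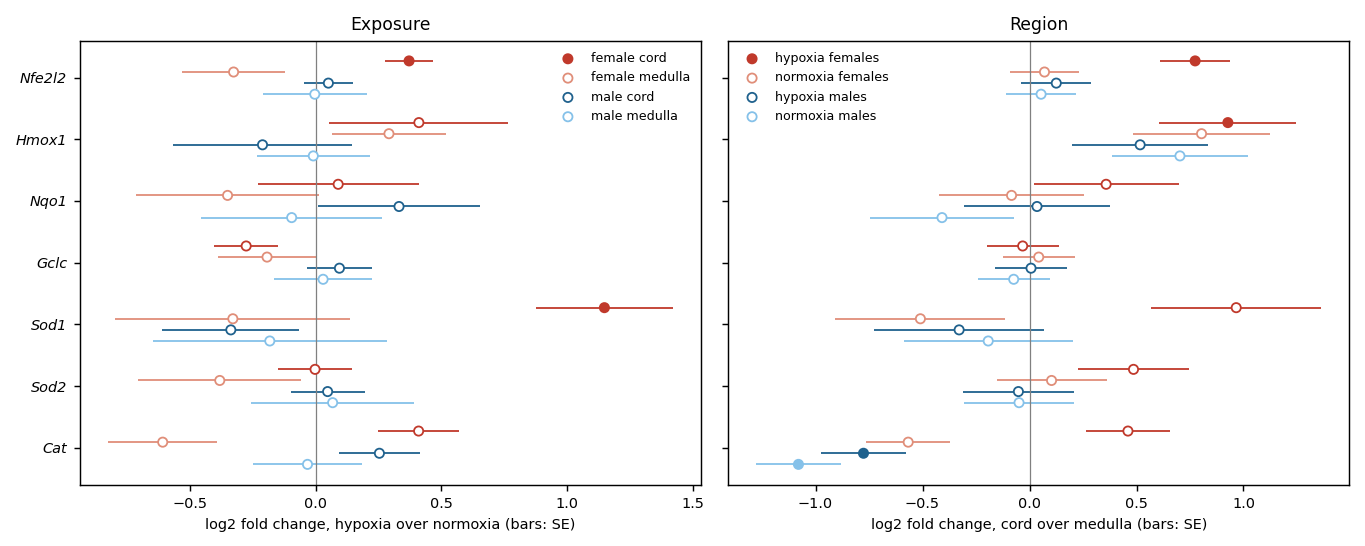
Log2 fold changes (edgeR, TMM scale) of the 7 genes for hypoxia over normoxia (left) and cord over medulla (right), with SE bars and filled symbols for adjusted p under 0.05. Sod1 at 1.15 and Nfe2l2 at 0.37 in the female cord are the filled symbols on the left, and Cat lies at -1.08 and -0.78 in males and at 0.46 in hypoxia females on the right.

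Females and males were then compared within each exposure. In the hypoxia cord 3 of 7 members were higher in females, Nfe2l2, Sod1 and Cat, and 0 were lower, where 19.6% of all genes were called. Cat had 45.4, 34.6, 30.4, 42.4 and 51.7 CPM in hypoxia females, against 35.4, 39.3, 30.9, 26.3 and 19.2 CPM in hypoxia males. The sexes overlapped, with 3 female libraries above every male library. The log2 fold changes, female over male, were 1.00 for Sod1 (SE 0.27, edgeR adjusted p = 0.015), 0.54 for Cat (SE 0.16, edgeR adjusted p = 0.0235) and 0.32 for Nfe2l2 (SE 0.096, edgeR adjusted p = 0.0244).

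These calls by sex rested on single libraries and on the fit. The Nfe2l2 call was lost without male hypoxia cord replicate 1 (adjusted p = 0.0667) or 3 (0.0992) and without female hypoxia cord replicate 3 (0.0653) or 5 (0.054), within a range of 0.0155 to 0.215 over 18 alternatives. The Cat call was lost without male hypoxia cord replicate 4 (adjusted p = 0.0664) or 5 (0.0608) and without female hypoxia cord replicate 5 (0.0699), within 0.00466 to 0.081. The Sod1 call was lost without female hypoxia cord replicate 2 (adjusted p = 0.0672), within 0.00261 to 0.112.

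Under normoxia in the cord 0 of 7 members were called between the sexes by edgeR, DESeq2 or limma voom, 2 had an unadjusted p under 0.05 (Gclc and Cat), and 6.56% of all genes were called. An unadjusted p under 0.05 was found for 23.5% of all genes, so 2 of 7 is near that background. Gclc averaged 67.0 ± 6.15 CPM in normoxia females and 51.7 ± 7.58 CPM in normoxia males. In the medulla 0 of 7 were called between the sexes under either exposure by edgeR on the 20 medulla libraries, by DESeq2 or by limma voom, and the calls made up 0.0707% of all genes for normoxia animals and 0.0777% for hypoxia animals. Cat in the hypoxia medulla had 34.1, 37.3, 10.1, 40.3 and 41.2 CPM in females, against 56.9, 56.3, 50.7, 41.3 and 55.6 CPM in males. On library totals every hypoxia female library lay below every hypoxia male library, and 10.1 CPM is the shallow library. The closest pair, at 41.2 and 41.3 CPM, changes order under the TMM factors of the 40-library fit, 0.9738 for that female and 0.9934 for that male. The edgeR adjusted p was 0.294 with a log2 fold change of -0.70 (SE 0.22). With all 40 libraries in the edgeR fit Cat was called, at an adjusted p of 0.0496, the lowest of its 19 alternatives, whose highest was 0.687. An unadjusted p under 0.05 was found for 1 of 7 members there, Cat, and for 14.3% of all genes, while under normoxia it was found for 0 members.

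Regions were compared within each sex and exposure in the fit of all 40 libraries. That fit held both libraries of an animal but no term for the animal, so the pairing was used only in the alternative with a block. Cat, which clears hydrogen peroxide, was lower in the cord than in the medulla of males. Normoxia males had 30.0, 23.3, 25.7, 23.3 and 23.1 CPM in the cord, against 56.2, 54.1, 53.9, 50.8 and 54.9 CPM in the medulla of the same animals. The regions did not overlap, and 5 of 5 animals were lower in the cord. The log2 fold change was -1.08 (SE 0.20, edgeR adjusted p = 0.00281). It was the 1 member of 7 called, where 6.55% of all genes were called, and it was kept in 18 of 18 alternatives, between -1.15 and -1.02.

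In hypoxia males Cat had 35.4, 39.3, 30.9, 26.3 and 19.2 CPM in the cord, against 56.9, 56.3, 50.7, 41.3 and 55.6 CPM in the medulla. Again the regions did not overlap and 5 of 5 animals were lower in the cord. Cord over medulla, the log2 fold change was -0.78 (SE 0.20, edgeR adjusted p = 0.0118), and Cat was the 1 of 7 members called, where 7.76% of all genes were called. It kept its call in 17 of 18 alternatives and missed it without male hypoxia cord replicate 5, at an adjusted p of 0.0514 within a range of 0.00011 to 0.0514.

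In normoxia females Cat had 35.9, 29.6, 34.9, 29.1 and 39.9 CPM in the cord, against 51.8, 49.4, 59.9, 36.8 and 46.6 CPM in the medulla. The regions overlapped, but 5 of 5 animals were lower in the cord. Its log2 fold change was -0.57 (SE 0.20, edgeR adjusted p = 0.0745), and 0 of 7 members were called, where 5.87% of all genes were called. An unadjusted p under 0.05 was found for 2 of the 7 members, Hmox1 and Cat, and for 24.2% of all genes. With each animal as a replicate block the adjusted p for Cat was 0.0367, and it was also called by DESeq2 (0.0347) and limma voom (0.00141), within a range of 0.00141 to 0.176 over 18 alternatives.

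In hypoxia females Cat had 45.4, 34.6, 30.4, 42.4 and 51.7 CPM in their cord, against 34.1, 37.3, 10.1, 40.3 and 41.2 CPM in their medulla, and 4 of 5 animals were higher in the cord, 1 of them the animal of the shallow library. Cat was not called between their regions, at a log2 fold change of 0.46 (SE 0.20, edgeR adjusted p = 0.0774), or 0.25 with an adjusted p of 0.226 without that library. The region by exposure interaction in females tested whether the regional difference varied with exposure and called Cat, at 1.03 on the log2 scale (SE 0.28, edgeR adjusted p = 0.0093). Without female hypoxia medulla replicate 3 it was 0.80 with an adjusted p of 0.00674, and with each animal as a replicate block 1.11 with an adjusted p of 0.00224. The interaction was kept in 27 of 28 alternatives, whose adjusted p-values ranged from 0.00131 to 0.0593, the highest with only the 4 female groups in the fit.

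**Figure D3:**
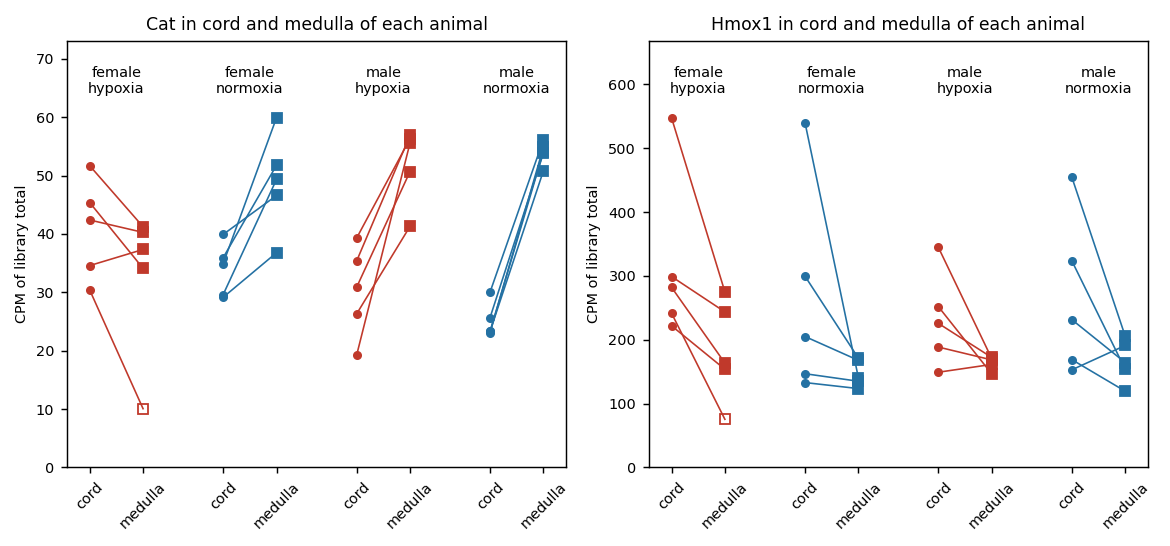
CPM (of the library total) of Cat and Hmox1 in the cord and the medulla of each animal, joined by a line, in 4 groups of 5 animals. Cat is lower in the cord in 5 of 5 animals of every group other than hypoxia females, where it is higher in 4 of 5, and the open square is female hypoxia medulla replicate 3.

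Nfe2l2 was also called in that interaction. In females the interaction of region and exposure was 0.71 for Nfe2l2 (SE 0.23, edgeR adjusted p = 0.0271), at the percentile 61.2 of absolute change. So 2 of 7 members were called and both in the positive direction, where 20.8% of all genes were called. A share of 2 in 7 is near that background. Nfe2l2 was at 0.49 with an adjusted p of 0.0195 without female hypoxia medulla replicate 3. It was called in 25 of 28 alternatives and lost without female normoxia cord replicate 2 (adjusted p = 0.0531), with library totals alone (0.122) and with only the female groups in the fit (0.129), the lowest value being 0.00352. For Sod1 the interaction was 1.48 (SE 0.56, edgeR adjusted p = 0.0566), and with each animal as a replicate block 1.85 with an adjusted p of 0.00738, within 0.00738 to 0.147. In males the same interaction called 0 of 7 members and 0% of all genes by edgeR, and 0 members by DESeq2 or limma voom, with 0 members at an unadjusted p under 0.05.

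Between the regions of hypoxia females 2 of 7 members were called, Nfe2l2 and Hmox1, both higher in the cord, where 26.2% of all genes were called. Nfe2l2 had 133, 108, 132, 111 and 126 CPM in the cord, against 80.0, 99.4, 26.9, 78.3 and 107 CPM in the medulla. The regions did not overlap, although the closest libraries stood at 108 CPM in the cord and 107 CPM in the medulla. The log2 fold change was 0.77 (SE 0.16, edgeR adjusted p = 0.0012), and 0.58 with an adjusted p of 0.000581 without the shallow library. With only the 10 libraries of these groups its adjusted p was 0.148, the highest of its 18 alternatives, and the lowest was 5.63e-05.

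Hmox1 was higher in the cord in 18 of 20 animals, with a median ratio of cord to medulla CPM of 1.43. In hypoxia females it had 222, 299, 242, 282 and 548 CPM in the cord, against 154, 244, 75.4, 164 and 275 CPM in the medulla. In the cord 3 libraries lay above every medulla library and 2 lay within the medulla range, and each animal was higher in its cord. For Hmox1 the log2 fold change was 0.93 (SE 0.32, edgeR adjusted p = 0.0295). That call was lost without female hypoxia medulla replicate 1 (adjusted p = 0.0714), 3 (0.0883) or 4 (0.0719) and without female hypoxia cord replicate 2 (0.0539) or 5 (0.131), and its 18 alternatives ranged from 0.00473 to 0.157. In the other groups the log2 fold changes for Hmox1 were 0.80 in normoxia females (edgeR adjusted p = 0.117), 0.52 in hypoxia males (0.359) and 0.70 in normoxia males (0.189), none of them called.

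The spread of Hmox1 between animals was described by its SD. In cord groups its SD was 132 CPM in hypoxia females, 167 in normoxia females, 73.9 in hypoxia males and 125 in normoxia males. In medulla groups it was 79.0 CPM in hypoxia females, 20.9 in normoxia females, 10.5 in hypoxia males and 33.6 in normoxia males. Cord means were also higher. Relative to the mean, the spread in hypoxia females was 41.4% in the cord and 43.3% in the medulla, the medulla value including the shallow library. Without that library the medulla SD was 59.7 CPM at a mean of 209 CPM (n = 4). Cord and medulla stood at 63.15% and 14.2% in normoxia females, 31.9% and 6.43% in hypoxia males and 46.8% and 20.15% in normoxia males. These spreads were not tested against each other.

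With the animal as a block, 5 members instead of 2 were called between the regions of hypoxia females, all higher in the cord, where that fit called 25.2% of all genes. The added ones were Sod1 at 1.31 (edgeR adjusted p = 0.00737), Sod2 at 0.67 (0.0486) and Cat at 0.55 (0.0182). In the fit without the shallow library, which had no block, the same members were at 0.73 (adjusted p = 0.163), 0.24 (0.394) and 0.25 (0.226). Over their alternatives the adjusted p-values ranged from 0.00737 to 0.327 for Sod1, from 0.0486 to 0.575 for Sod2 and from 0.0182 to 0.337 for Cat.

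Ordered by group mean, Cat was highest in the normoxia male medulla at 54.0 CPM, before the hypoxia male medulla at 52.2, the normoxia female medulla at 48.9 and the hypoxia female cord at 40.9 CPM. Below them stood the normoxia female cord at 33.9, the hypoxia female medulla at 32.6, the hypoxia male cord at 30.2 and the normoxia male cord at 25.1 CPM. Neighbours in this order overlapped in their ranges. Without the shallow library the hypoxia female medulla averaged 38.2 ± 3.22 CPM (n = 4), one place higher. Nfe2l2 was highest in the hypoxia female cord, at 122.2 ± 11.5 CPM, and lay between 96.8 and 105.7 CPM in the 6 groups other than the hypoxia female medulla, at 78.4 ± 31.4 CPM. Sod1 was also highest in the hypoxia female cord, at 81.1 CPM, and lowest in the normoxia female cord, at 41.2 CPM, with the remaining 6 groups between 44.7 and 64.8 CPM.

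Correlations between members differed by pair and by region. Within-group deviations of log2 CPM were correlated between pairs of members as a description, since libraries share depth and composition. Group means included the shallow library in every case, also where its own deviation was then left out. Over 19 medulla libraries, without the shallow one, Pearson's r was 0.78 for Sod1 with Sod2, 0.75 for Nfe2l2 with Hmox1, 0.74 for Nfe2l2 with Sod1 and 0.54 for Nfe2l2 with Gclc. In the 20 cord libraries the same pairs were at 0.58, 0.19, 0.20 and 0.26. The pair of Nqo1 and Gclc, both Nrf2 targets, was at -0.05 in the medulla and -0.57 in the cord. How far the shallow library still weighs on the medulla values, through the group mean, was not tested.

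**Figure D4:**
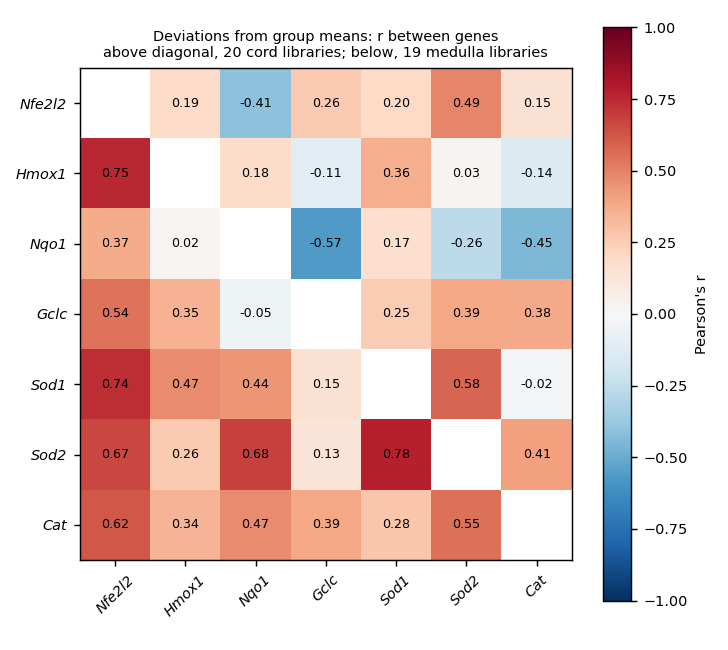
Pearson's r between pairs of the 7 genes for deviations of log2 CPM from group means, in 20 cord libraries (above the diagonal) and 19 medulla libraries (below it). The group means include the shallow library, which is itself left out below the diagonal. Nfe2l2 correlates with Hmox1 at 0.19 in the cord and at 0.75 in the medulla, and Nqo1 with Gclc at -0.57 and at -0.05.

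The genes most like 2 of the members were listed as a description. Among 9383 genes of at least 3 in average log2 CPM, ENSRNOG00000018391 and ENSRNOG00000046663 were most like Nfe2l2 in within-group deviations, with r of 0.91 and 0.90 over 40 libraries and 0.78 for each without the shallow library. The member most like Nfe2l2 was Sod2, at 0.82 and rank 116 over 40 libraries, and at 0.63 without the shallow library. For Hmox1 the nearest member, Nfe2l2, stood at 0.47 and rank 321, and at 0.37 without that library. Values of r without that library also rest on group means that included it.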

How the data were processed

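The authors deposited raw read counts per Ensembl gene ID for 40 libraries, with 1 labelled column each. TopHat2 2.1, HTSeq, edgeR and build rn6 are named in the submitters' processing notes. Annotation, strand setting and filters: not given in the sources used here. Reads of overlapping or near-identical genes may therefore have been shared. The table has 0 rows that name no gene, and the 80 pairs of libraries within groups held 0 identical pairs, with at least 10.1 in chi-square per gene. The labels name no sequencing batch.

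Counts were tested with the edgeR 4.0.16 quasi-likelihood F test in R 4.3.3, with TMM factors, after filterByExpr with a minimum count of 10, and p-values were adjusted over all genes tested (Benjamini-Hochberg, threshold 0.05). Fits for exposure and sex held 20 libraries, all from 1 region, and fits for region held all 40. The main fits modelled group means with no term for the animal. SEs are those implied by the F statistic. Alternatives were RLE factors, no filter, DESeq2 1.42.0, limma 3.58.1 voom with quality weights, other sets of libraries, a replicate block, each library left out in turn and, chosen after seeing the data, library totals without TMM.

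Equal numbers mark the cord and medulla of 1 animal, per the series design and labels. After group means were removed, these pairs correlated positively over all genes in 20 of 20 animals, at 0.07 to 0.42. All 7 members were tested in every comparison, though not each is named in the text, and the genes most like a member were taken by Pearson's r. The members and lists were chosen with earlier results of these data known. Of 105 pathway symbols and 41 cell type marker symbols listed, 0 could be matched to the IDs, since 0 of 47357 rows of the gene table used here carry an Ensembl ID, and these lists were not analysed here. Promoter windows were taken by symbol from RefSeq (GRCr8).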

Additional observations from a re-analysis of the deposited data

Results flagged for a closer look

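Among 56 sets of 5 libraries (7 genes in 8 groups), 3 held a library far from the others by Dixon's criterion of 0.71, where chance alone gives about 1 in 20. Hmox1 in female hypoxia cord replicate 5 was at 548 CPM, with the next library at 299 CPM, a gap of 0.763 of the group's range. Female hypoxia medulla replicate 3 was far below its group for Gclc, at 18.97 CPM with the next library at 59.0 (0.754 of the range), and for Cat, at 10.1 CPM with the next at 34.1 (0.771 of the range).

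Tested differences between groups were found for 3 gene and interaction pairs. The exposure difference of Sod1 in the cord was higher in females than in males by 1.49 on the log2 scale. In females the exposure difference was higher in the cord than in the medulla by 1.03 for Cat and by 0.71 for Nfe2l2.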

How the results depend on the processing

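Of 112 log2 fold changes (7 genes in 16 comparisons), 12 were called, and 22 were called in the main or an alternative fit; of the 454 alternative values of these 22, 391 kept their side of the threshold, 33 lost a call, 30 gained one and 0 changed sign. Among the 90 never called, 43 changed sign in some fit, so values given for uncalled members are levels and estimates, not changes.

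The number of members called moved by over 1.5 times as follows, with the share of all genes called in the same fit in parentheses. With all 40 libraries in the fit it was 1 in the female cord by exposure (20.8%), 0 in the cord interaction of sex and exposure (10.5%), 0 by sex in the hypoxia cord (6.69%) and 1 by sex in the hypoxia medulla (2.25%). With library totals alone it was 2 in that cord interaction (26.9%), 1 by sex in the hypoxia cord (21.2%), 1 by region in hypoxia females (27.1%) and 1 in the female interaction of region and exposure (22.4%). With limma voom it was 4 in the female cord by exposure (34.4%), 2 in the cord interaction (25.2%), and by region 1 in hypoxia females (11.5%) and 1 in normoxia females (17.9%). With only the groups compared it was 1 by sex in the hypoxia cord (14.7%), 0 by region in hypoxia females (0.99%), 1 by region in normoxia females (15%) and 0 in the female region interaction (7.71%). By region, normoxia females had 1 with DESeq2 (9.94%), and without the shallowest library there was 1 in hypoxia females (21.3%) and 1 in normoxia females (12%). With the animal as a replicate block there were 5 by region in hypoxia females (25.2%) and 1 in normoxia females (8.1%). Smaller moves, to 3 members where the main count was 2, came with DESeq2 by region in hypoxia females (30.4%) and in the female region interaction (25.4%), with the replicate block in that interaction (21.1%), and with only the groups compared in the female cord by exposure (32.1%).

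Leaving out single libraries gave 2 to 3 members in the female cord by exposure, 1 to 3 by sex in the hypoxia cord, 0 to 1 by region in hypoxia males, 1 to 4 by region in hypoxia females and 1 to 3 in the female region interaction. The other counts did not move in these fits. For comparisons by exposure and sex the labels do not tie replicate numbers to a shared litter, and the replicate block changed no member's call there, for example Sod1 in the female cord at 1.14 (adjusted p = 0.00354). The causes of these shifts were not tested. Nqo1 had 6 to 107 reads per library.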
